A study of Nothobranchius furzeri with 3 samples.

Results

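The miRNAs described here are the features named nfu-mir-192, nfu-mir-194, nfu-mir-122, nfu-mir-122a/mir-3591, nfu-mir-375 and nfu-mir-7, which are known from gut, liver, kidney and hormone-secreting cells in vertebrates. They were taken by name, as 6 of the 324 features of a small RNA count table for skin of an annual, short-lived fish, the turquoise killifish (Nothobranchius furzeri). The table holds 3 libraries, all from male fish aged 39 weeks, of the strain MZM-04/10p. The labels give 1 group with no treatment, second age or second tissue, so every comparison below is between miRNAs or between these 3 libraries, called 1, 2 and 3 in accession order. Whether the libraries are 3 separate fish is not stated outright. Some of their spread could be technical in either case.

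In mammals, miR-192 and miR-194 are made from shared transcripts and are abundant in intestine, liver and kidney. miR-122 makes up a large part of the miRNA of vertebrate liver cells, where it acts on lipid metabolism. miR-375 is known from the endocrine pancreas of mouse and zebrafish, where it takes part in islet formation and limits insulin release in mouse, and from other secretory cells. miR-7 is found in neuroendocrine cells and neurons. The name mir-3591 is used in human for a miRNA on the strand opposite miR-122, and whether reads were counted by strand is not given in the sources used here, so mir-122 and mir-122a/mir-3591 may share reads.

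The libraries held 5021238, 8545292 and 9590428 counts. At these depths a count of 0 allows up to 3 counts, or 0.597, 0.351 and 0.313 counts per 1000000 (CPM), and all intervals below are 95% exact binomial (Clopper-Pearson) intervals that cover counting error only. Most features tested differed between libraries by more than that error (given with the tests), and the share of all features without overlap was not counted. The epithelium list, led by mir-205, took between 6.31% and 8.73% of counts in every library. The feature named mir-200 was at 0 throughout, while mir-8 of the same list had 16052, 33366 and 48672 counts. Names may stand for families, so the empty mir-200 row does not show that related sequences were absent. The striated muscle list took 1.64%, 0.667% and 2.23% of libraries 1, 2 and 3, and was thus lowest in library 2. The erythroid list took 0.113%, 0.226% and 0.0509%, and was highest there.

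The 6 miRNAs were a small part of the skin profile and consisted mostly of mir-192. Together they took 0.526% of library 1, 0.114% of library 2 and 0.586% of library 3. mir-192 made up 89.2%, 82.6% and 91.6% of their summed counts. The other 5 features together took 0.0568%, 0.0199% and 0.0493%. Library 2 was the lowest for both mir-192 and the rest, and libraries 1 and 3 lay close together. In whole tissue, a smaller number of cells and less of a miRNA in each cell cannot be told apart.

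**Figure D1:**
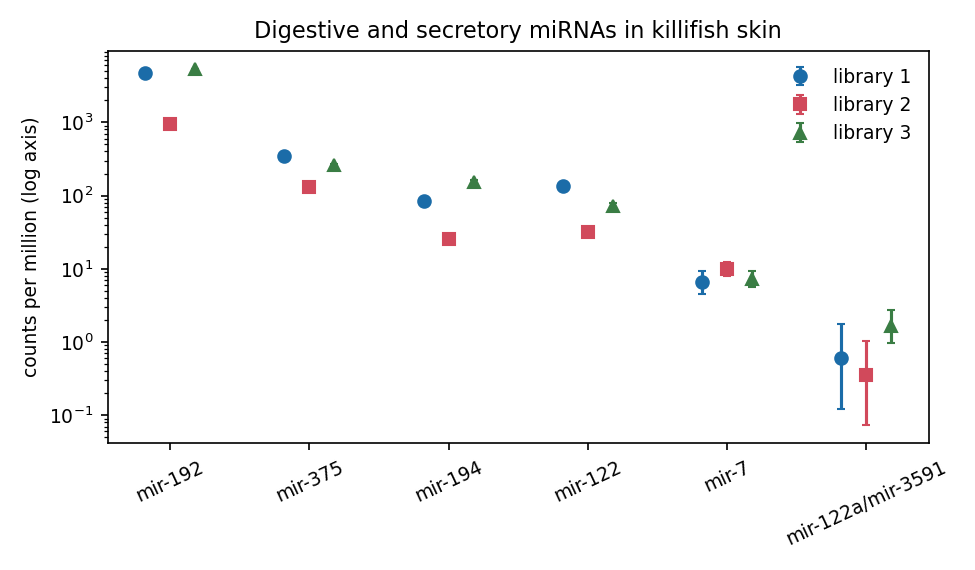
Level of each miRNA in each library in CPM of the library total, on a log axis, with points for libraries 1 (circle), 2 (square) and 3 (triangle) and bars for the 95% exact binomial interval. mir-192 stands above the other 5 in every library. mir-192, mir-375, mir-194 and mir-122 are lowest in library 2 with no overlap of intervals, and the intervals of mir-7 and mir-122a/mir-3591 overlap. The share of all features without overlap was not counted. Of all features tested, 31.0% were lowest in library 2. The exact binomial test called 67.7% of them between libraries 1 and 2 and 76.6% between libraries 2 and 3.

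mir-192 had 23534, 8083 and 51513 counts in libraries 1, 2 and 3. These counts were 0.469% (0.463 to 0.475), 0.0946% (0.0925 to 0.0967) and 0.537% (0.533 to 0.542) of the libraries. Among the 324 features its rank was 20, 47 and 18, and 23 by its mean of 3668 ± 2382 CPM (SD, n = 3). Without library 2 it ranked 17. The neighbours of that mean rank were pred_586, at 3858 ± 974 CPM (SD, n = 3), and mir-25, at 3653 ± 526 CPM, from which mir-192 differed by less than its spread. Its share in library 2 was 4.95-fold below library 1 and 5.68-fold below library 3, while library 3 was 1.15-fold above library 1 by library totals, an order that depends on the scaling (given with the tests).

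mir-194, the partner of mir-192 in mammalian transcripts, was far rarer and was likewise lowest in library 2. Its level was 83.8 CPM (76.0 to 92.2) in library 1, from 421 counts, 25.2 CPM (21.9 to 28.8) in library 2, and 153 CPM (145.5 to 161) in library 3, from 1470 counts. The intervals of the 3 libraries did not overlap, with library 3 highest and library 2 lowest. By the chi-square test given below, 81.6% of all features tested differed between libraries, so these gaps alone do not set mir-194 apart. Its rank was 76, 100 and 73, and library 2 lay 3.33-fold below library 1 and 6.09-fold below library 3. The mean was 87.4 ± 64.1 CPM (SD, n = 3), or 0.00874% of counts, and without library 3 it was 0.00545%.

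The liver miRNA mir-122 had 680, 274 and 700 counts, equal to 0.0135% (0.0125 to 0.0146), 0.00321% (0.00284 to 0.00361) and 0.00730% (0.00677 to 0.00786) of the libraries. Library 1 was here the highest, library 2 the lowest, and the intervals did not overlap. Against the same 81.6% of all features tested that differed, this alone does not set mir-122 apart either. It ranked 69, 98 and 85, with a mean of 80.2 ± 52.1 CPM (SD, n = 3), or 0.00802% of counts, and 0.00525% without library 1. mir-122a/mir-3591 was at the edge of detection with 3, 3 and 16 counts, equal to 0.597 CPM (0.123 to 1.75), 0.351 CPM (0.0724 to 1.03) and 1.67 CPM (0.954 to 2.71). Its 3 intervals overlapped, which does not show that the libraries were equal. Without the count filter of the tests below, the exact binomial test called it between libraries 2 and 3 (adjusted p = 0.0125). mir-122a/mir-3591 made up 0.439%, 1.08% and 2.23% of the counts of both mir-122 features, so that mir-122 carried nearly all of them. Its mean share was 8.72e-05% with all libraries and 4.74e-05% without library 3.

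Of the miRNAs of secretory cells, mir-375 was the more abundant. It had 1717, 1122 and 2468 counts, equal to 342 CPM (326 to 359), 131 CPM (123.7 to 139) and 257 CPM (247 to 268). With no overlap of intervals, to be read against the same 81.6% of all features tested, it was highest in library 1 and lowest in library 2. It ranked 57, 76 and 61. Its mean of 244 ± 106 CPM (SD, n = 3) lay beside mir-210, at 251 ± 52.5 CPM, and mir-454, at 210 ± 69.3 CPM. mir-7 had 33, 85 and 70 counts, equal to 6.57 CPM (4.52 to 9.23), 9.95 CPM (7.95 to 12.3) and 7.30 CPM (5.69 to 9.22). It was the 1 feature of the 6 that was not lowest in library 2, but its intervals overlapped and no order of the libraries can be read from it.

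In order of mean level the 6 were mir-192, mir-375, mir-194, mir-122, mir-7 and mir-122a/mir-3591. mir-192 exceeded mir-375, and mir-375 exceeded both mir-194 and mir-122, in 3 of 3 libraries. mir-194 and mir-122 could not be ordered. The ratio of mir-194 to mir-122 in libraries 1, 2 and 3 was 0.619 (0.547 to 0.7002), 0.785 (0.653 to 0.942) and 2.10 (1.92 to 2.30), a mean log2 ratio of 0.01 ± 0.93 (SD). mir-7 stood below these 4 and above mir-122a/mir-3591 in every library. Ratios between different miRNAs also carry the preference of adapter ligation for certain sequences.

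For each count of mir-194, libraries 1, 2 and 3 had 55.9 (50.8 to 61.7), 37.6 (32.8 to 43.3) and 35.0 (33.3 to 36.9) counts of mir-192. The intervals of libraries 2 and 3 overlapped, and that of library 1 lay above both. The ratio thus varied 1.60-fold while mir-192 itself varied 5.68-fold and mir-194 6.09-fold. A range this small was not particular to the pair, as the ratio of mir-375 to mir-122 varied 1.62-fold. The contrast also rests on library 2. Between libraries 1 and 3, by library totals, mir-192 differed 1.15-fold, mir-194 1.83-fold, and the ratio of mir-192 to mir-194 its full 1.60-fold. On the log2 scale it was 5.39 ± 0.36 (SD, n = 3), and flipping the sign of each library's log2 ratio in an exact two-sided permutation test gave p = 0.25, the smallest that 3 libraries allow, so no ratio can pass 0.05 by this test. Although both are co-transcribed in mammals, mir-194 was the rarer in 3 of 3 libraries.

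Set against mir-122, the ratio of mir-192 was 34.6 (32.1 to 37.4), 29.5 (26.2 to 33.4) and 73.6 (68.3 to 79.4). Libraries 1 and 2 overlapped, and library 3 stood above both. It varied 2.49-fold, and its log2 value was 5.40 ± 0.70 (SD, n = 3), with p = 0.25 by the same exact permutation test. The mean ratios to mir-194 and to mir-122 were hence nearly equal, but a different library stood apart in each. The ratio of mir-192 to mir-375 was 13.7 (13.1 to 14.4), 7.20 (6.77 to 7.68) and 20.9 (20.0 to 21.7), so that no libraries overlapped and library 2 had the lowest value. mir-375 to mir-122 varied 1.62-fold, from 2.53 (2.31 to 2.76) in library 1 to 4.09 (3.59 to 4.69) in library 2, with 3.53 (3.24 to 3.84) in library 3.

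**Figure D2:**
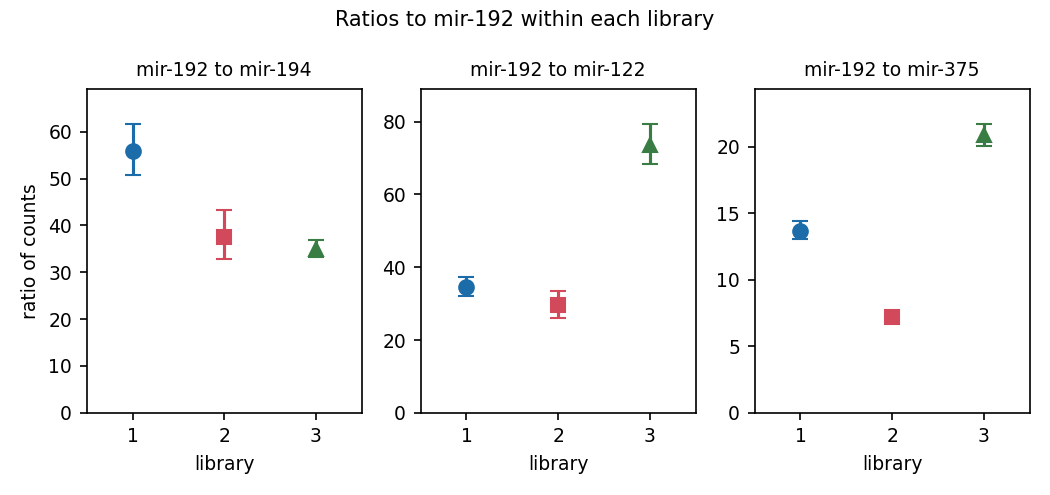
Ratio of the counts of mir-192 to those of mir-194, mir-122 and mir-375 within each library, on linear axes from 0, with 95% exact binomial intervals. The ratio to mir-194 is highest in library 1 at 55.9, and the ratios to mir-122 and mir-375 are highest in library 3 at 73.6 and 20.9.

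Most of the features tested differed between the libraries by more than counting error, and the members have to be read against that. By a chi-square test of the 3 counts with Benjamini-Hochberg adjustment over all 158 features that averaged at least 10 counts, which compares these libraries and no conditions, 4 of the 5 members tested differed, against 81.6% of all features tested. mir-122a/mir-3591 was below the count minimum. The adjusted p was 4.05e-178 for mir-194, 3.81e-103 for mir-122 and 1.51e-145 for mir-375, and that of mir-192 was too small for the software to hold. mir-7 did not pass, with an adjusted p of 0.0656, and it passed with 0.0402 when library sizes were scaled by the trimmed mean of M-values (TMM). Over all alternatives its adjusted p ran from 0.0402 to 0.663.

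By pairs of libraries, the exact binomial test with the same adjustment called the same number in each. Between libraries 1 and 2 it called 4 of 5 members, against 67.7% of all features tested. Between libraries 1 and 3 it called 4 of 5, against 68.4%, and between libraries 2 and 3 it called 4 of 5, against 76.6%. mir-7 was the member without a call in each pair, although with TMM scaling it passed between libraries 2 and 3 (adjusted p = 0.0256, against 0.0564 to 0.120 under the other alternatives). For mir-192 the difference between libraries 1 and 3 had an adjusted p of 1.08e-67 with library totals and of 0.717 with TMM scaling, both by the exact binomial test, and the TMM-scaled levels were 4987 and 5004 CPM. With DESeq2 size factors the order was the opposite, at 5255 CPM in library 1 and 5018 CPM in library 3 (adjusted p = 1.12e-08 by that test), so that no order of these libraries can be given for mir-192. With 5 members tested, these shares of calls are near the background, so they say nothing particular about the members.

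mir-194, mir-192 and mir-122 varied more in size than most of the 158 features tested. The highest library exceeded the lowest 6.09-fold for mir-194, 5.68-fold for mir-192, 4.22-fold for mir-122, 2.60-fold for mir-375 and 1.51-fold for mir-7, against a median of 1.90-fold over the 158 features. In that order they ranked 8, 9, 17, 42 and 112 of 158 by fold. The biological coefficient of variation per feature from edgeR was 0.629 for mir-194, 0.608 for mir-192, 0.593 for mir-122, 0.503 for mir-375 and 0.387 for mir-7, beside a median of 0.420 over all. The trend at their levels was 0.523, 0.454, 0.522, 0.515 and 0.465, so that mir-375 and mir-7 lay below the trend and the other 3 above it. Without library 2 the coefficients of mir-192, mir-194 and mir-122 were 0.309, 0.403 and 0.435. The share of library 3 over that of library 1 was 1.15 for mir-192, 1.83 for mir-194 and 0.539 for mir-122. Whether these 3 varied more than most features without library 2 was not tested.

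**Figure D3:**
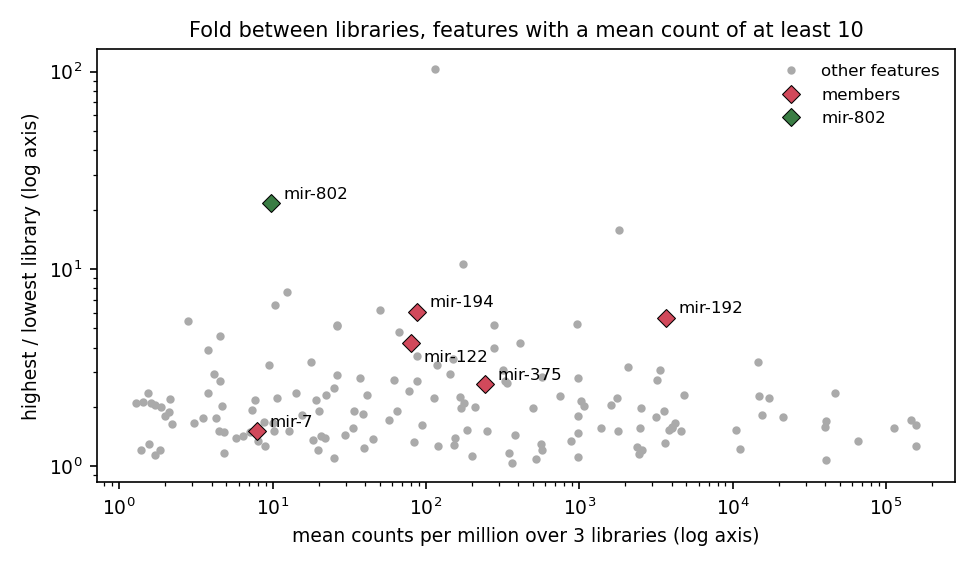
Highest divided by lowest share over the libraries against mean level in CPM, both on log axes, for the 158 features that averaged at least 10 counts. mir-192 at 5.68-fold, mir-194 at 6.09-fold and mir-122 at 4.22-fold lie above the median of 1.90-fold, mir-802 lies at 21.6-fold, and mir-7 lies at 1.51-fold.

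mir-192, mir-194 and mir-122 were at least 2-fold lower in library 2 than in both other libraries, a limit chosen after their values were seen. Of all 158 features 8 were, or 5.06%. The other 5 were mir-802, mir-133, mir-499, mir-184 and pred_238. mir-802 is known from mammalian liver, mir-133 and mir-499 from striated muscle, and mir-184 from corneal epithelium. The same 3 members met the limit with TMM scaling and with DESeq2 size factors, where 8 and 9 of all 158 features met it. mir-375 missed it, being 2.60-fold lower than in library 1 and 1.96-fold lower than in library 3. Muscle miRNAs were low in the same library: mir-133, mir-1 and mir-499 were each lowest in library 2, as 3 of 3 features of that list present, against 31.0% of all features tested. Whether muscle in the samples had a part in the values of mir-192, mir-194 and mir-122 was not tested. In the epithelium list, mir-205, mir-203 and mir-8 were all lowest in library 1, as were 46.8% of all features tested. mir-184, which is not on that list, was lowest in library 2 as given above. mir-205 exceeded mir-192 by 12.2-fold, 68.4-fold and 14.4-fold in libraries 1, 2 and 3.

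To ask which members changed together, the profile of each feature was written as log2(TMM-scaled CPM + 1) minus its mean, and profiles were compared by their root mean square distance over the 3 libraries, among the 115 features that averaged at least 100 counts. With 3 libraries this is a description, and no correlation is given. mir-194 was the nearest of 114 features to mir-192, at a distance of 0.302, against a median distance of 1.17. mir-192 was in turn the nearest to mir-194. Their centred values were 0.79 and 0.37 in library 1, -1.59 and -1.41 in library 2 and 0.80 and 1.04 in library 3. Both were lowest in library 2, and on this scale libraries 1 and 3 were apart for mir-194 and level for mir-192.

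The next nearest to both were mir-133, at 0.427 from mir-192 and 0.330 from mir-194, and mir-499, at 0.518 and 0.368. mir-133 had 16897, 6493 and 20199 TMM-scaled CPM, and mir-499 had 124.6, 56.2 and 169.5. Both were lowest in library 2 and highest in library 3, as was mir-194. The place of the pair depends on library 2: without it mir-194 ranked 77 of 114 in distance from mir-192, and mir-192 ranked 55 from mir-194. Without library 1 each was the nearest of the other at 0.0292. Without library 3 mir-194 ranked 3 from mir-192, behind mir-122 as the nearest, and mir-192 ranked 10 from mir-194, to which mir-145 was nearest. With a pseudocount of 10 CPM mir-192 ranked 4 from mir-194.

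mir-122 and mir-375 were highest in library 1, and differed in this from mir-194, which was highest in library 3. For mir-192 no order of libraries 1 and 3 can be given. mir-122 and mir-375 lay 0.281 apart, mir-375 as the third nearest to mir-122 and mir-122 as the fourth nearest to mir-375. Without libraries 1, 2 or 3 in turn they lay 0.0992, 0.236 and 0.334 apart, and mir-375 ranked 7, 15 and 9 from mir-122. The features nearest to mir-122 were mir-145, a smooth muscle miRNA, at 0.255 and mir-184 at 0.264. mir-145 had 3731, 1112 and 1497 TMM-scaled CPM, also highest in library 1 and lowest in library 2. The feature nearest to mir-375 was mir-184 at 0.0569, followed by mir-183, a miRNA of sensory cells, at 0.161 and mir-146, a miRNA of immune signalling, at 0.167. Of the 5 features of the leukocyte list, mir-146 was the only 1 lowest in library 2. mir-142 and mir-223 of that list were highest there, at 2395 and 965 CPM by library totals. mir-184 had 4776, 1648 and 3273 TMM-scaled CPM beside 364, 132 and 240 for mir-375, a nearly constant proportion. Without libraries 1, 2 or 3 in turn mir-184 ranked 8, 4 and 3 in distance from mir-375, and mir-145 ranked 25, 5 and 4 from mir-122.

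Over all 3 libraries, mir-122 ranked 5 and mir-375 ranked 7 in distance from mir-192, at 0.580 and 0.633. Without library 1 they ranked 10 and 16, without library 2 they ranked 96 (0.539) and 72 (0.302), and without library 3 they ranked 1 (0.133) and 9 (0.467). Which members lie closest to mir-192 thus rests on single libraries. Seen from mir-375, mir-192 ranked 45 and mir-194 ranked 56, at distances near the median of 0.695. The median distance to all features was larger from mir-192, at 1.17. Among the 158 features that averaged at least 10 counts, mir-7 ranked 110 of 157 from mir-192 and 102 from mir-375.

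**Figure D4:**
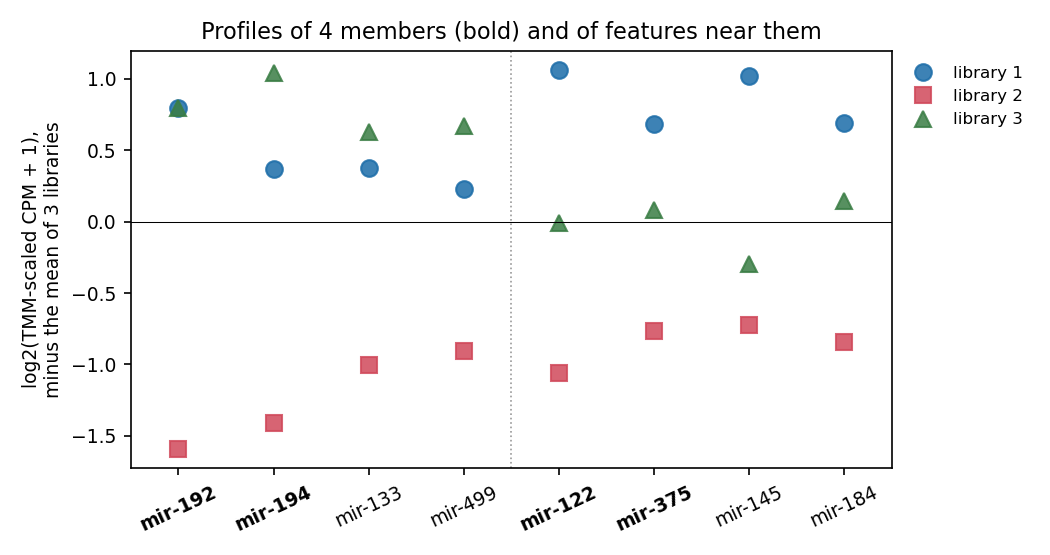
Centred log2 level in each library for 4 members (bold) and for the features near them, with libraries 1 (circle), 2 (square) and 3 (triangle). All features drawn have library 2 at the bottom. Left of the dotted line mir-192, mir-194, mir-133 and mir-499 have libraries 1 and 3 above 0, as have mir-375 and mir-184 right of it. The features right of the line, mir-122, mir-375, mir-145 and mir-184, have library 1 at the top.

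**Figure D5:**
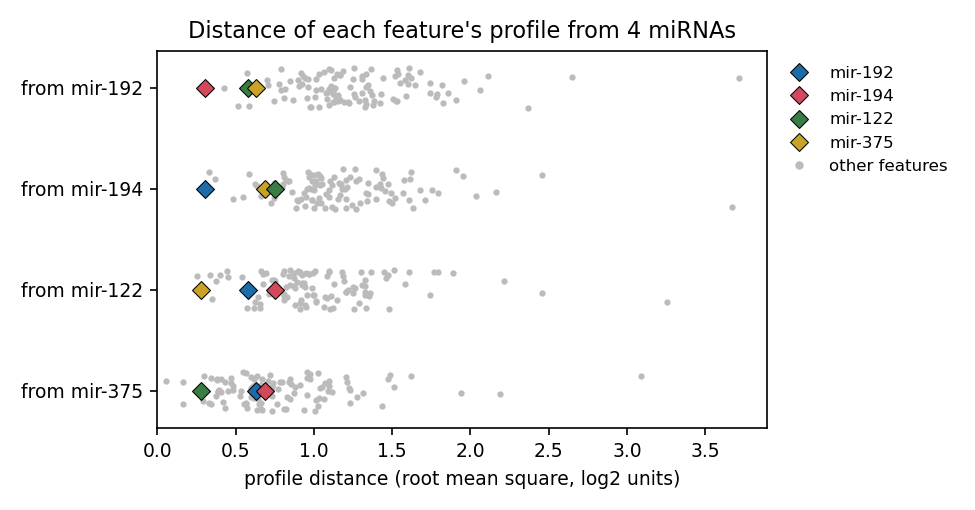
Root mean square distance, in log2 units, of the profile of each of 114 features from mir-192, mir-194, mir-122 and mir-375, with members as diamonds, other features as grey points, and vertical scatter only for legibility. mir-194 is the point nearest to mir-192 at 0.302, while around mir-375 the other members except mir-122 lie amid the grey points.

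Of 6 further miRNA numbers listed for the miR-192 family, liver and pancreas, 4 were present (mir-148, mir-216, mir-217 and mir-802), and the other numbers had no feature. Mammals have a close relative of miR-192 with a nearly identical sequence, and whether reads of such a relative were counted as mir-192 is not given in the sources used here. All 4 differed between libraries by the chi-square test, against the 81.6% given above, with a median fold of 2.89 between highest and lowest. mir-802 had 53, 7 and 170 counts, equal to 10.6, 0.819 and 17.7 CPM, and was lowest in library 2 and highest in library 3. Among the 158 features it was the second nearest to mir-192 at 0.358, and the fifth nearest to mir-194 at 0.425. However, its level in library 2 rests on 7 counts and lies below the 1 CPM added before the log, which shrinks its fall there. By counts, with nothing added, the ratio of mir-192 to mir-802 varied 3.81-fold over the libraries. That of mir-194 to mir-802 varied 3.87-fold, so these distances make mir-802 look closer than the ratios do. mir-148, known from many tissues, had 1882, 2087 and 1388 CPM and was lowest in library 3, so it did not share the low value in library 2.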

How the data were processed

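Per the labels' protocols, small RNA libraries of 3 skin samples were made from total RNA with a TruSeq kit of Illumina. The authors deposited raw read counts per miRNA name, 1 column per library, not normalized. Per the submitters' processing notes, the tools used included BWA 0.7.12-r1039, Trimmomatic 0.36, SAMtools 1.3.1-9 and bcl2fastq 1.8.4, without roles. The build, the miRNA annotation, strand use and the handling of multiply matching reads were not given in the sources used here. Names carry no arm and may stand for families, so members may pool related sequences. The labels mention no molecular identifiers.

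Shares and CPM used library totals of the deposited counts. TMM factors (0.940, 0.991 and 1.07) and coefficients of variation came from edgeR 4.0.16 with an intercept-only design, under R 4.3.3. Tests across all features took those with a mean count of at least 10 and Benjamini-Hochberg adjustment with a threshold of 0.05. They were tried on simulated counts that held counting error only. There the chi-square test found 48 of 60 features changed 1.5-fold in library 2, with 2 false calls. The real libraries varied by more than counting error, which the simulation did not cover. Other tools were Python 3.11.15, scipy 1.17.1, and, for alternatives, DESeq2 1.42.0.

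The members and the 7 lists of other miRNAs were chosen with earlier results of these data known. Features named were the members, the 3 nearest to each member that averaged at least 100 counts, and up to 3 of each list by mean CPM. Lists away from the results are given by count only, and other features were named after their values were seen. Of the lists, the chi-square test called 4 of 4 liver and pancreas features, 3 of 3 epithelium, 3 of 3 striated muscle, 2 of 2 erythroid, 5 of 5 leukocyte, 5 of 5 neural and 4 of 4 kidney-rich features tested. Features lowest in library 2 numbered 2, 0, 3, 0, 1, 0 and 1 in the same order. Of all features tested, 81.6% were called by the chi-square test and 31.0% were lowest in library 2.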

Additional observations from a re-analysis of the deposited data

How the results depend on the processing

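No paired analysis was possible because the study has 1 group. The median biological coefficient of variation of the 5 members tested was 0.593, with a range of 0.381 (without library 2) to 0.650 when single libraries were dropped. The distance between mir-192 and mir-194 was 0.302, with a range of 0.0292 (without library 1) to 0.334 (without library 2). The rank of mir-192 by mean CPM was 23, with a range of 17 (without library 2) to 27 (without library 1). In each case the cause was not tested. The coefficients of mir-192 and mir-194 alone moved likewise, to 0.309 and 0.403 without library 2. For mir-192 and mir-7 the order of libraries 1 and 3 turned with the scaling factors of these libraries. Those factors were 0.940 and 1.07 with TMM and 0.892 and 1.07 with DESeq2. Why the factors differed between the libraries was not tested. The log2 of library 3 over library 1 for mir-192 was 0.20 with library totals, 0.0050 with TMM scaling and -0.066 with DESeq2 size factors. For mir-7, not called in that pair under any of these, it was 0.15, -0.040 and -0.11. No other direction of a member between a pair of libraries, nor of either ratio tested, was reversed by scaling or filter or pseudocount, and no such setting moved the count of members called by over 1.5 times. The calls of mir-7 depended on TMM scaling, and without a count filter mir-122a/mir-3591 passed the chi-square test (adjusted p = 0.0207). By the exact binomial test it then passed between libraries 2 and 3 (adjusted p = 0.0125). It did not pass between libraries 1 and 2 (0.874) or 1 and 3 (0.203). The limit of 2-fold for library 2, and its alternatives, were added after seeing the data. In each, 3 members met it, and 4 without library 3. Of all features, 8 of 158 met it with all libraries, 22 of 158 without library 1 and 16 of 158 without library 3. Without a count filter 40 of 266 did. Depth limits mir-122a/mir-3591 and mir-7.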

Other observations

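mir-216 and mir-217, which lie in 1 cluster in mammals and are known from the acinar pancreas, had unlike profiles here. mir-216 had 2665, 1141 and 1685 counts in libraries 1, 2 and 3, equal to 531, 134 and 176 CPM, while mir-217 had 93, 153 and 98 counts, equal to 18.5, 17.9 and 10.2 CPM. The ratio of mir-216 to mir-217 was 28.7 (95% exact binomial interval 23.3 to 35.6), 7.46 (6.29 to 8.89) and 17.2 (14.0 to 21.3), a 3.84-fold range. That of mir-192 to mir-194 varied 1.60-fold, and that of mir-375 to mir-122 nearly the same, at 1.62-fold. Among the 158 features that averaged at least 10 counts, mir-216 was the fifth nearest in profile to mir-122, at 0.349. Its fold of 3.97 between highest and lowest library was close to the 4.22 of mir-122.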
